A study of Rattus norvegicus with 5 samples.

Results

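The genes described here carry neurotrophin and glial cell line–derived neurotrophic factor (GDNF) signals. They were 9 genes chosen by name: the ligands *Bdnf*, *Ntf3* and *Gdnf*, the Trk receptors *Ntrk2* (TrkB) and *Ntrk3* (TrkC), the p75 receptor *Ngfr*, the receptor tyrosine kinase *Ret*, and the coreceptors *Gfra1* and *Gfra2*. Of these, 8 were matched among the 32883 gene names of the files. *Gfra1* was not analysed here. The data were snRNA-seq libraries of the ventral tegmental area (VTA), a midbrain region that holds dopamine, GABA and glutamate neurons. There were 5 libraries, 1 from each of 5 adult male Sprague-Dawley rats, and VTA punches from both sides of a brain were pooled. The sample labels give saline as the treatment, whereas a figure legend of the study calls the rats drug-naïve. There was 1 condition, so each comparison was made between cell classes of the same rats.

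Neurotrophins are secreted proteins that support the survival, growth and synaptic function of neurons. Brain-derived neurotrophic factor (BDNF, from *Bdnf*) acts on TrkB, and neurotrophin-3 (from *Ntf3*) acts mainly on TrkC. The p75 receptor binds every neurotrophin. GDNF binds GFRα1 and neurturin binds GFRα2, and each complex then signals through the RET kinase. Midbrain dopamine neurons are known to depend on several of these factors, and BDNF and GDNF in the VTA are known to alter responses to drugs of abuse.

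Nuclei were barcodes with at least 1000 unique molecular identifiers (UMIs, each standing for 1 captured RNA molecule), more than 200 and fewer than 5000 genes and less than 5% of UMIs from mitochondrial genes. This left 1813, 9336, 2284, 4823 and 3828 nuclei in rats 1 to 5. Median depths in rats 1 to 5 were 1829, 2849, 1605.5, 3526 and 3088 UMIs per nucleus. Clusters were named by marker genes, and the 8 genes and their pathway were left out of the clustering. The classes held 806 dopamine-like, 1683 GABA-like, 663 glutamate-like, 8700 oligodendrocyte-like, 724 oligodendrocyte precursor (OPC)-like, 887 astrocyte-like, 343 microglia-like and 358 vascular-like nuclei. A further 1823 neurons had mixed or other markers, 5029 nuclei were unnamed and 1068 were removed as doublets. Rat 1 had no dopamine-like or GABA-like class, and rat 3 had no OPC-like or vascular-like class. These gaps follow from the filters and naming rules and do not show that the cells were absent. In rat 1, a cluster of 83 nuclei led by *Slc6a3* and *Slc18a2* was left out for low UMIs (median 1597). In that rat 3121 of 5218 barcodes also failed the mitochondrial limit. With no maximum of genes, rat 1 had 25 dopamine-like and 76 GABA-like nuclei. In rat 3, a cluster with OPC and vascular markers was left out as mixed. Libraries shared 0 to 24 barcodes in pairs.

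Marker levels of the classes are given here, but clusters were named by these same markers, so they are no independent check. The 8 dopamine markers summed to 31.3 to 39.9 UMIs per 10000 in dopamine-like neurons and to at most 13.6 elsewhere. That highest value was in vascular-like nuclei of rat 1, and glutamate-like neurons held 2.97 to 5.37. The 4 GABA markers summed to 6.34 to 12.6 in GABA-like neurons, a range that OPC-like nuclei of rat 5 reached with 7.26. The glutamate markers summed to 1.73 to 3.81 in glutamate-like neurons and to at most 1.64 elsewhere. Rat 3 stood apart in its glia. Its microglia-like nuclei had 15.8 microglial marker UMIs per 10000 against 57.1 to 82.3 in the other rats, and its astrocyte-like nuclei had 128 oligodendrocyte marker UMIs per 10000 against 30.3 to 63.3. Differences between glial classes are therefore also given without rat 3. Rat 3 had no OPC-like class, so for comparisons with OPC-like nuclei this is hardly a check.

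Levels are UMIs of a gene per 10000 UMIs of a class in 1 rat, so that cells are not counted as replicates. Because this assay counts the 3′ ends of transcripts, levels were compared between classes and not between genes, and transcripts that differ only upstream of the 3′ end could not be told apart. Droplets also carry free RNA from broken cells. From dopamine genes in oligodendrocyte-like nuclei, free RNA was estimated at 9.59% to 29.9% of the median UMIs of an oligodendrocyte-like nucleus. Its profile came from droplets under 100 UMIs. In rats 2, 4 and 5, barcodes ranked far below the nuclei still held 558, 218 and 260 UMIs, so this profile may miss part of the free RNA. For *Ntrk3* and *Gfra2* the estimate exceeded the oligodendrocyte-like level in every rat, so it may be too high. Values after subtraction are therefore approximate. Classes were compared with edgeR's quasi-likelihood test on summed counts with the rat as a block, and a difference was called at a Benjamini-Hochberg adjusted p under 0.05 over all genes tested.

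**Figure D1:**
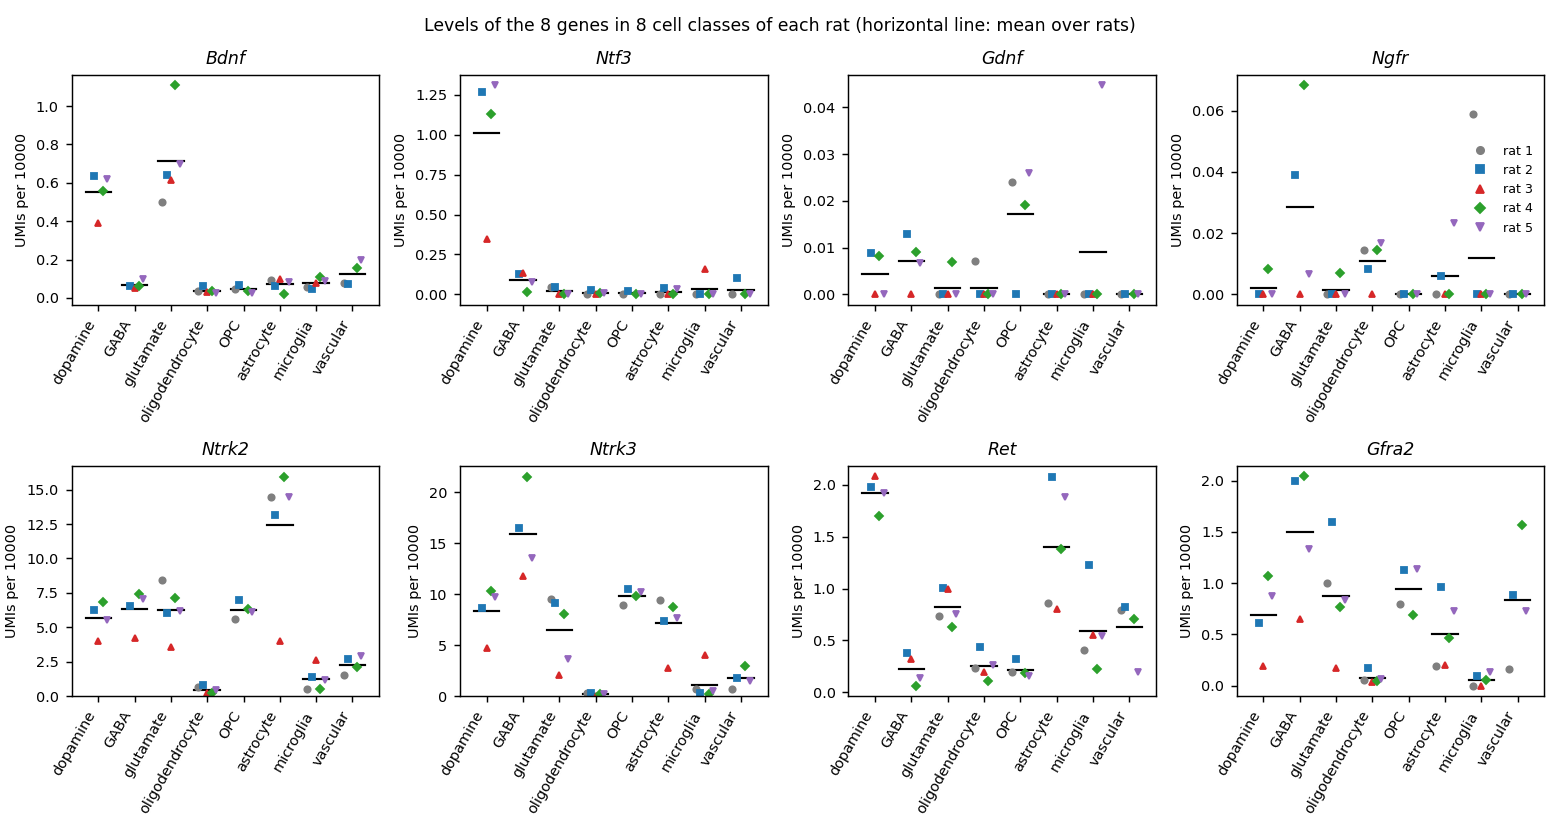
Level of each of the 8 genes (y axis, UMIs per 10000; each panel has its own scale) in 8 cell classes (x axis), with 1 point per rat and a line at the mean over rats. *Ntf3* in dopamine-like neurons lay between 0.344 and 1.31, above every other class, whereas *Ntrk2* was highest in astrocyte-like nuclei of every rat but rat 3.

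Among the named classes, *Bdnf* was highest in dopamine-like and glutamate-like neurons. It also had 386 UMIs in other neurons and 356 in unnamed nuclei, against 322 and 343 in these classes. In dopamine-like neurons its level was 0.638, 0.391, 0.557 and 0.619 UMIs per 10000 in rats 2 to 5. In glutamate-like neurons it was 0.499, 0.643, 0.617, 1.11 and 0.699 in rats 1 to 5. These ranges overlapped, and both lay above those of all other named classes. In GABA-like neurons the level was only 0.0632, 0.0511, 0.0638 and 0.0959 in rats 2 to 5. Means in glia ranged from 0.0381 ± 0.0148 (SD, n = 5 rats) in oligodendrocyte-like to 0.0772 ± 0.0245 (n = 5) in microglia-like nuclei, and vascular-like nuclei had 0.126 ± 0.0611 (n = 4). The free RNA of each rat would give 0.0350 to 0.0628 *Bdnf* UMIs per 10000 in oligodendrocyte-like nuclei, and 0 remained there after subtraction in all 5 rats. In microglia-like nuclei 0 remained in rats 1 and 2, and 0.0555 to 0.0820 in rats 3 to 5. From the third to the last place in the order of levels, each class overlapped the next.

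Of 11013 genes tested between dopamine-like and GABA-like neurons, 22.1% passed the threshold, and 5 of the 6 tested genes described here did so. *Bdnf* was 8.24-fold higher in dopamine-like neurons (log2 difference 3.04 ± 0.21 SE, adjusted p = 2.33e-08), in 4 of 4 rats. Over the alternatives this difference was 2.25 to 3.42, with the call kept. Between dopamine-like and glutamate-like neurons, 15.6% of genes passed, 3 of the 6 genes among them, and *Bdnf* did not (log2 difference −0.38 ± 0.17, adjusted p = 0.173), although the value was negative in 4 of 4 rats and passed without rat 2 (−0.68, adjusted p = 0.0312). It was smallest without rat 4 (−0.11, adjusted p = 0.906). Between GABA-like and glutamate-like neurons, 7.20% of genes passed, 4 of the 6 genes among them, and *Bdnf* was lower in GABA-like neurons in 4 of 4 rats (log2 difference −3.42 ± 0.21, adjusted p = 6.37e-08). This difference was −3.86 to −2.65 over the alternatives, with the call kept.

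Detection followed the same order. With every nucleus thinned to 1000 UMIs, which left out no nucleus, a *Bdnf* UMI was found in 3.33% to 7.14% of dopamine-like neurons, 2.56% to 8.39% of glutamate-like neurons and 0.420% to 1.01% of GABA-like neurons. Oligodendrocyte-like nuclei, taken as background, gave 0.249% to 0.591%. Without thinning, the shares were 7.67% to 40.0% in dopamine-like and 0.940% to 5.57% in GABA-like neurons, at median depths of 1784 to 10349 and 1641 to 8972 UMIs.

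*Bdnf* varied among glutamate-like neurons. Over their 13 sub-clusters it ranged from 0.0694 to 3.73 UMIs per 10000. The highest was a sub-cluster of 25 nuclei in rat 4 led by *Angpt1*, *Bdnf* and *Ebf1*. A sub-cluster of 91 nuclei of rat 2 led by *Pdzrn3* and *Lmx1a* had 1.18, whereas one of 75 nuclei of the same rat led by *Ttc29* and *Stk32a*, with the glycine transporter gene *Slc6a5* among its leading genes, had 0.0954. Sub-clusters held 13 to 153 nuclei, differed between rats and were not tested, and those named were chosen after their values were seen. Outside the classes, sub-clusters of 42, 19, 16 and 87 nuclei in rats 2 to 5 led by *Tph2*, the serotonin-synthesis enzyme, with the serotonin transporter gene *Slc6a4* among their leading genes, had *Bdnf* levels of 0.766, 0.187, 1.34 and 0.263. The value of rat 3 came from 1 UMI. Rat 1 also had a sub-cluster led by *Tph2*, of 71 nuclei, without *Slc6a4* among its leading genes. Over all 5 sub-clusters led by *Tph2* the median was 0.412.

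The *Bdnf* gene has several promoters, each with its own first exon, which 3′ counts cannot separate. Among the genes of the rule, RefSeq (build GRCr8) windows were matched for *Bdnf* (6), *Ntf3* (3, of which 2 start 1 base apart), *Gdnf*, *Ret* and *Gfra1* (1 each), 12 in all, and not for *Ntrk2*, *Ntrk3*, *Ngfr* and *Gfra2*. One is printed because it is the only one of the 6 windows that holds TGACG, the core of the cAMP response element through which neuronal activity is known to raise *Bdnf* transcription. It lies at chr3:116637608-116637907 on the plus strand. Capitals mark the bases from the annotated start onward. The motif lies on the opposite strand, so it is printed as cgtca, and it begins 35 bases before the start.
Bdnf: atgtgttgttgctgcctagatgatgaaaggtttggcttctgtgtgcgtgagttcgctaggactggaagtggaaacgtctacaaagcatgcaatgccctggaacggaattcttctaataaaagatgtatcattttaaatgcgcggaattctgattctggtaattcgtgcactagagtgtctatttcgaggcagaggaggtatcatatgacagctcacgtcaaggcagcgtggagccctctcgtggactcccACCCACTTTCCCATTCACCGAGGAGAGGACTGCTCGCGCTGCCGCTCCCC
TGACG was searched on both strands and occurred in 21.2% of 33469 RefSeq windows of the same length, and in 2 of the 12 matched windows.

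*Ntf3* was highest in dopamine-like neurons, and its range there overlapped no other named class. Its level there was 1.27, 0.344, 1.13 and 1.31 UMIs per 10000 in rats 2 to 5. In GABA-like neurons it was 0.125, 0.136, 0.0137 and 0.0761. Rat 3 had the lowest value in dopamine-like neurons, and still no rat's dopamine-like value fell within the range of another class. Glutamate-like neurons held 10 *Ntf3* UMIs in 663 nuclei, and 3 of the 5 rats had none. Means in glial and vascular classes were 0.00549 to 0.0314, from 2 to 37 UMIs a class. The highest of them, in microglia-like nuclei, came from 2 UMIs of rat 3 alone, and the next was 0.0253 in vascular-like nuclei, from 7 UMIs of rat 2.

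*Ntf3* was 14.3-fold higher in dopamine-like than in GABA-like neurons (log2 difference 3.84 ± 0.33, adjusted p = 3.15e-07) and higher than in glutamate-like neurons (5.88 ± 0.54, adjusted p = 1.04e-06), each in 4 of 4 rats. *Ntf3* met the filter on low counts only through its dopamine-like sums, where it was highest. Its place among the tested genes, and in the counts of called genes, is therefore no separate support for these differences. The first value was 3.09 to 4.18 over the alternatives. The second value rests on few glutamate-like UMIs and depends on the prior count of the fit. Between GABA-like and glutamate-like neurons it did not pass (2.05 ± 0.77, adjusted p = 0.159), except with no filter on low counts. With nuclei thinned to 1000 UMIs, an *Ntf3* UMI was found in 4.0% to 11.8% of dopamine-like neurons and in at most 0.280% of oligodendrocyte-like nuclei. Unthinned, the shares were 6.33% to 47.8% and at most 0.746%, at median depths of 1784 to 10349 and 1236.5 to 6290 UMIs.

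Among dopamine-like neurons, *Ntf3* was uneven. In each of the 4 rats, 1 sub-cluster had *Aldh1a1*, the retinaldehyde dehydrogenase of a known dopamine neuron subtype, among its 10 leading genes. These sub-clusters had *Ntf3* at 0.497, 0.224, 0.277 and 0.122 UMIs per 10000 in rats 2 to 5. The other dopamine-like sub-clusters of the same rats ranged from 1.57 to 2.33, at 0.460, from 1.35 to 2.12, and from 1.1 to 2.63. The *Aldh1a1* sub-cluster was the lowest for *Ntf3* in 4 of 4 rats, and held 78 of the 626 *Ntf3* UMIs (12.5%) in 364 of the 806 nuclei (45.2%). In rat 3 the order rested on 7 UMIs against 15. The highest value, 2.63, was in 33 nuclei of rat 5 led by *Chrnb3* and *Slc6a3*. This division was noticed in the data and is given without a test.

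**Figure D2:**
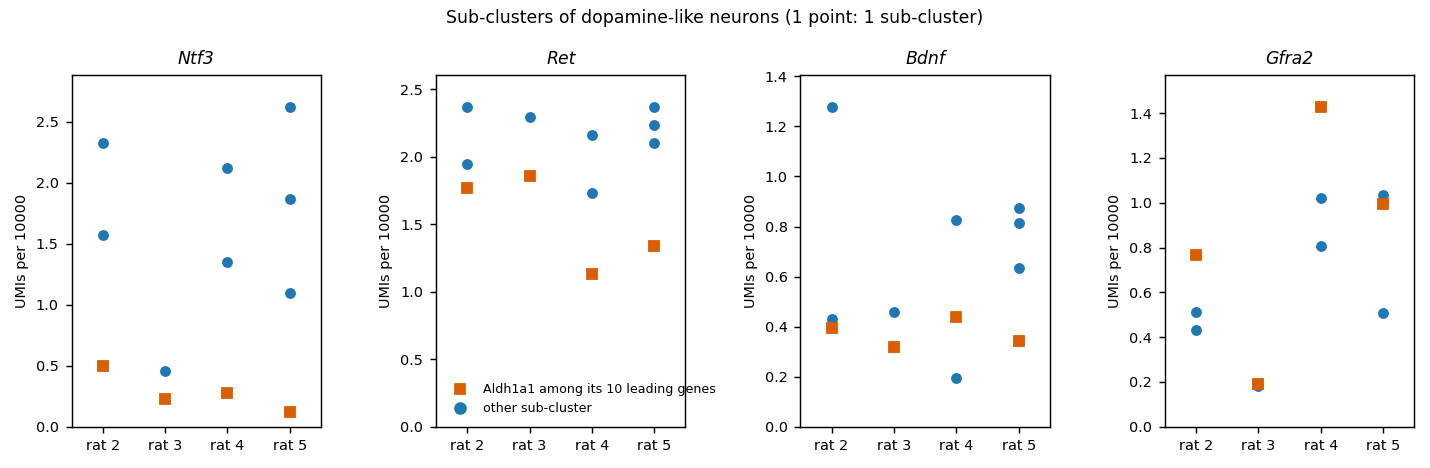
Levels of *Ntf3*, *Ret*, *Bdnf* and *Gfra2* (y axes, UMIs per 10000) in the sub-clusters of dopamine-like neurons of rats 2 to 5 (x axis), 1 point per sub-cluster. Squares have *Aldh1a1* among their 10 leading genes and lie below the circles of the same rat in 4 of 4 rats for *Ntf3* and *Ret*, and in 3 of 4 for *Bdnf*, but above them in 3 of 4 rats for *Gfra2*. Counts in rat 3 were small, at 7 UMIs against 15 for *Ntf3* and 10 against 15 for *Bdnf*. For *Gfra2* they were 6 against 6, and the levels there (0.192 and 0.184) hardly differed.

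A small group of GABA-like neurons also held *Ntf3*. In rats 2, 3 and 5, sub-clusters led by *Bcl11b* and *Nfib* had 1.39, 1.3 and 1.23 *Ntf3* UMIs per 10000. The other 37 GABA-like sub-clusters had at most 0.163. These 3 sub-clusters were 86 of 1683 GABA-like nuclei (5.11%) and held 73 of the 101 *Ntf3* UMIs (72.3%). Rat 4 had no such sub-cluster and had the lowest GABA-like value, 0.0137. The sub-clusters were chosen after their values were seen.

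The promoter window of *Ntf3* is shown because the gene was called higher in dopamine-like than in both other neuron classes. RefSeq gives 3 starts, and the one printed lies at chr4:160670574-160670873 of GRCr8 on the minus strand, with capitals from the annotated start onward.
Ntf3: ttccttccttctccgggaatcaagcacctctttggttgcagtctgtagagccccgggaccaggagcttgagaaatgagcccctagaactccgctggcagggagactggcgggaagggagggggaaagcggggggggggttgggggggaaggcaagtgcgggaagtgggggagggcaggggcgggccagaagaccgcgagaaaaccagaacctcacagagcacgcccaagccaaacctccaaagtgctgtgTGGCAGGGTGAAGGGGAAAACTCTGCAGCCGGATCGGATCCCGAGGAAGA
The window is 62.3% G or C and holds GGGCGG, the GC box bound by Sp1-type factors, once, 73 bases before the start. GGGCGG was searched on both strands and occurred in 33.1% of all windows.

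*Gdnf* was scarcely detected. All kept nuclei held 39 *Gdnf* UMIs in 35 nuclei. Of these, 11 were in GABA-like, 5 in OPC-like and 3 in dopamine-like nuclei, and 8 were in a sub-cluster of 108 mixed neurons of rat 4. Astrocyte-like nuclei held none in any of the 5 rats, which allows a level of at most 0.0180 to 0.300 UMIs per 10000 in a rat. Vascular-like nuclei held none in 4 rats, with limits of 0.0433 to 0.237. A level under these limits was not detectable at this depth.

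*Ntrk2* was found in every neuron class and was highest in astrocyte-like nuclei. Its level in astrocyte-like nuclei was 14.4, 13.2, 4.0, 15.9 and 14.5 UMIs per 10000 in rats 1 to 5. Means in the 3 neuron classes lay close together, at 5.66 ± 1.24 (n = 4) in dopamine-like, 6.33 ± 1.44 (n = 4) in GABA-like and 6.28 ± 1.78 (n = 5) in glutamate-like neurons. OPC-like nuclei had 6.27 ± 0.55 (n = 4), vascular-like 2.29 ± 0.62 (n = 4) and oligodendrocyte-like 0.470 ± 0.265 (n = 5). Rat 3 was the lowest rat in each neuron class and in astrocyte-like nuclei. TrkB exists as a full-length kinase and as a truncated form without the kinase domain, and the truncated form is the one known in astrocytes. These counts cannot separate them.

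No difference of *Ntrk2* between neuron classes was called. The log2 differences were −0.14 ± 0.09 (adjusted p = 0.323) for dopamine-like minus GABA-like, 0.07 ± 0.09 (0.729) for dopamine-like minus glutamate-like and 0.20 ± 0.09 (0.267) for GABA-like minus glutamate-like neurons. Among glia the differences were large. *Ntrk2* was 25.9-fold higher in astrocyte-like than in oligodendrocyte-like nuclei (log2 difference 4.69 ± 0.28, adjusted p = 4.81e-10; 4.73 without rat 3), where 50.0% of 10185 genes passed. It was 11.3-fold higher in OPC-like than in oligodendrocyte-like nuclei (3.5 ± 0.28, adjusted p = 1.47e-08; 3.52 without rat 3), where 48.1% passed. The oligodendrocyte-like level these folds were taken against was 0.671, 0.796, 0.199, 0.225 and 0.459 in rats 1 to 5, and free RNA would give 0.471, 0.790, 0.258, 0.346 and 0.414. After subtraction 0 to 0.229 remained, against 4.05 to 17.0 in astrocyte-like and 5.91 to 7.99 in OPC-like nuclei. Both calls were kept, with fitted differences of 8.52 and 7.25, which depend on the prior count of a group near 0 and are no bound. *Ntrk2* was also higher in astrocyte-like than in OPC-like nuclei (1.19 ± 0.25, adjusted p = 0.00116; 1.21 without rat 3), where 38.5% passed. The call between astrocyte-like and OPC-like nuclei was lost with free RNA subtracted (1.27 ± 0.78, adjusted p = 0.233) and without the rat block (0.97 ± 0.41, adjusted p = 0.104), and over all alternatives the difference was 0.97 to 1.28.

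*Ntrk3* was highest in GABA-like neurons. Its level there was 16.5, 11.8, 21.5 and 13.6 UMIs per 10000 in rats 2 to 5. Dopamine-like neurons had 8.62, 4.71, 10.3 and 9.72 in the same rats. Glutamate-like neurons had 9.51, 9.13, 2.02, 8.02 and 3.6 in rats 1 to 5. The GABA-like range did not overlap that of OPC-like nuclei, the next class (8.91 to 10.5), whereas OPC-like, dopamine-like, astrocyte-like and glutamate-like nuclei each overlapped the next. Oligodendrocyte-like nuclei had 0.201 ± 0.104 (n = 5).

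*Ntrk3* was lower in dopamine-like than in GABA-like neurons (log2 difference −0.92 ± 0.20, adjusted p = 0.00315), in 4 of 4 rats, and higher in GABA-like than in glutamate-like neurons (1.61 ± 0.21, adjusted p = 0.000115), in 4 of 4 rats. The first call was lost with libraries centred before clustering (adjusted p up to 0.252 over the alternatives), and both were lost without the rat block. For dopamine-like minus glutamate-like neurons the difference passed narrowly (0.69 ± 0.21, adjusted p = 0.0356), in 3 of 4 rats, and 8 of 15 alternatives lost the call, leaving out rat 3 (adjusted p = 0.127) and rat 5 (0.236) among them. Among glia, *Ntrk3* was 32.4-fold higher in astrocyte-like (log2 difference 5.02 ± 0.19, adjusted p = 2.35e-12; 4.99 without rat 3) and 38.6-fold higher in OPC-like nuclei (5.27 ± 0.20, adjusted p = 2.14e-12; 5.25 without rat 3) than in oligodendrocyte-like nuclei. The oligodendrocyte-like level of 0.0331 to 0.308 was below what free RNA would give (0.0908 to 0.497) in 5 of 5 rats, and 0 remained after subtraction, against 2.88 to 10.2 in astrocyte-like and 9.72 to 12.8 in OPC-like nuclei. Both calls were kept. Their fitted differences became 13.8 and 14.1, which depend on the prior count of a group at 0 and are no bound. Astrocyte-like and OPC-like nuclei did not differ by the test (−0.25 ± 0.17, adjusted p = 0.267; −0.26 without rat 3).

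GABA-like neurons spanned a wide range of *Ntrk3*. Over 40 sub-clusters its level ran from 3.33 to 41.3 UMIs per 10000, with a median of 12.2. The 5 sub-clusters with the kainate receptor gene *Grik1* among their leading genes had 18.6 to 41.3, over 4 rats. The 5 led by *Nox4* had 3.33 to 7.98, over the same rats. *Grik1* sub-clusters lay above *Nox4* sub-clusters in each rat. Both sets were chosen after their values were seen.

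**Figure D3:**
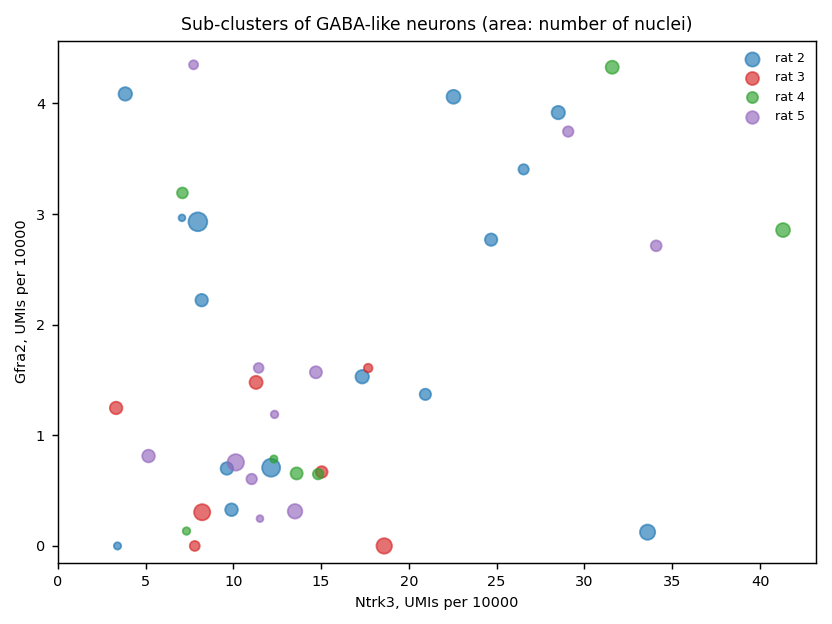
*Gfra2* (y axis) against *Ntrk3* (x axis), both in UMIs per 10000, in the 40 sub-clusters of GABA-like neurons of rats 2 to 5, with the area of a point set by its number of nuclei. *Ntrk3* spans 3.33 to 41.3 and *Gfra2* spans 0 to 4.35, and sub-clusters high in *Gfra2* lie at both ends of *Ntrk3*.

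*Ngfr*, the p75 receptor gene, was rare. It had 128 UMIs in 114 kept nuclei. GABA-like neurons held 38 of them and oligodendrocyte-like nuclei 36, whereas dopamine-like neurons held 1 UMI in 806 nuclei. Within GABA-like neurons, 7 sub-clusters with *Sox6* among their leading genes held 31 of the 38 UMIs (81.6%) in 284 of 1683 nuclei (16.9%). The highest level, 0.635 UMIs per 10000, came from 11 UMIs in 30 nuclei of rat 2. This grouping was chosen after the values were seen. *Ngfr* and *Gdnf* did not pass the filter on low counts in any comparison, nor did *Bdnf* and *Ntf3* in glia, and they were not tested there.

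*Ret* was highest in dopamine-like neurons on average over rats. The level was 1.98, 2.08, 1.70 and 1.92 UMIs per 10000 in rats 2 to 5. Glutamate-like neurons had 0.737, 1.0, 0.994, 0.633 and 0.755 in rats 1 to 5. GABA-like neurons had 0.374, 0.324, 0.0638 and 0.139 in rats 2 to 5, where free RNA would give 0.157, 0.106, 0.0570 and 0.0965 and 0.242, 0.235, 0.00476 and 0.0460 remained after subtraction. The 3 neuron classes did not overlap. Astrocyte-like nuclei came second, with 0.863, 2.08, 0.80, 1.38 and 1.88 in rats 1 to 5, and overlapped the dopamine-like range in rats 2 and 5. In rat 2 the astrocyte-like level was the higher, and with free RNA subtracted it was the higher in rats 2 (2.23 against 2.02) and 5 (1.96 against 1.95). Vascular-like nuclei (mean 0.629, range 0.198 to 0.823) and microglia-like nuclei (0.588, 0.221 to 1.22) ranked after glutamate-like neurons, overlapped their range and ranked above GABA-like neurons. Dopamine marker UMIs per 10000 were 7.28 to 13.6 in vascular-like nuclei, 2.60 to 9.24 in microglia-like nuclei and 0.884 to 2.99 in GABA-like neurons. The part of dopamine neuron RNA in the *Ret* levels of vascular-like and microglia-like nuclei was not tested. When each nucleus was typed by its own marker UMIs instead of by cluster, the dopamine-like mean was 3.57 over 5 rats (range 1.70 to 8.12) in place of 1.92 over 4 rats.

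*Ret* was 9.33-fold higher in dopamine-like than in GABA-like neurons (log2 difference 3.22 ± 0.24, adjusted p = 5.24e-08) and 2.47-fold higher than in glutamate-like neurons (1.31 ± 0.23, adjusted p = 0.000741), each in 4 of 4 rats. The second call was lost without the rat block, and over all alternatives that difference was 1.24 to 1.74. *Ret* was lower in GABA-like than in glutamate-like neurons (−1.92 ± 0.26, adjusted p = 0.000188), in 4 of 4 rats. With free RNA subtracted, the dopamine-like minus GABA-like difference of *Ret* became 4.05 ± 0.38 (adjusted p = 2.65e-06) and the GABA-like minus glutamate-like difference −2.66 ± 0.42 (adjusted p = 0.00112). With nuclei thinned to 1000 UMIs, a *Ret* UMI was found in 11.6% to 24.3% of dopamine-like neurons, 3.45% to 10.3% of glutamate-like neurons and 0.967% to 4.54% of oligodendrocyte-like nuclei. Unthinned, the shares were 30.3% to 80.8%, 15.7% to 41.9% and 2.31% to 14.7%.

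*Ret* RNA was also plentiful among free RNA, at 1.31 to 2.22 UMIs per 10000 in droplets under 100 UMIs. In oligodendrocyte-like nuclei the observed level of 0.235, 0.436, 0.199, 0.112 and 0.262 in rats 1 to 5 was set beside the level that free RNA would give, 0.303, 0.380, 0.139, 0.151 and 0.256. The observed level was below it in rats 1 and 4 and above it in rats 2, 3 and 5, and 0 to 0.0748 remained after subtraction. The amount of free RNA was set from dopamine genes in these same nuclei, and *Ret* was also highest in dopamine-like neurons. The observed and free RNA levels are therefore not independent. In astrocyte-like nuclei free RNA would give 0.106 to 0.296 against the 0.80 to 2.08 observed. The astrocyte-like excess over oligodendrocyte-like nuclei (log2 difference 2.51 ± 0.21, adjusted p = 2.39e-08; 2.54 without rat 3) was in 5 of 5 rats. With free RNA subtracted, 0.688 to 2.23 remained in astrocyte-like nuclei, and the call was kept, with a fitted difference of 6.31. *Ret* was also 7.23-fold higher in astrocyte-like than in OPC-like nuclei (2.85 ± 0.28, adjusted p = 3.07e-07; 2.87 without rat 3), and this call too was kept, with a fitted difference of 5.89. Both fitted values depend on the prior count of a group at or near 0 and are no bound. OPC-like and oligodendrocyte-like nuclei did not differ by the test (−0.35 ± 0.29, adjusted p = 0.354; −0.33 without rat 3), and after subtraction of free RNA 0 to 0.0824 UMIs per 10000 remained in OPC-like nuclei.

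**Figure D4:**
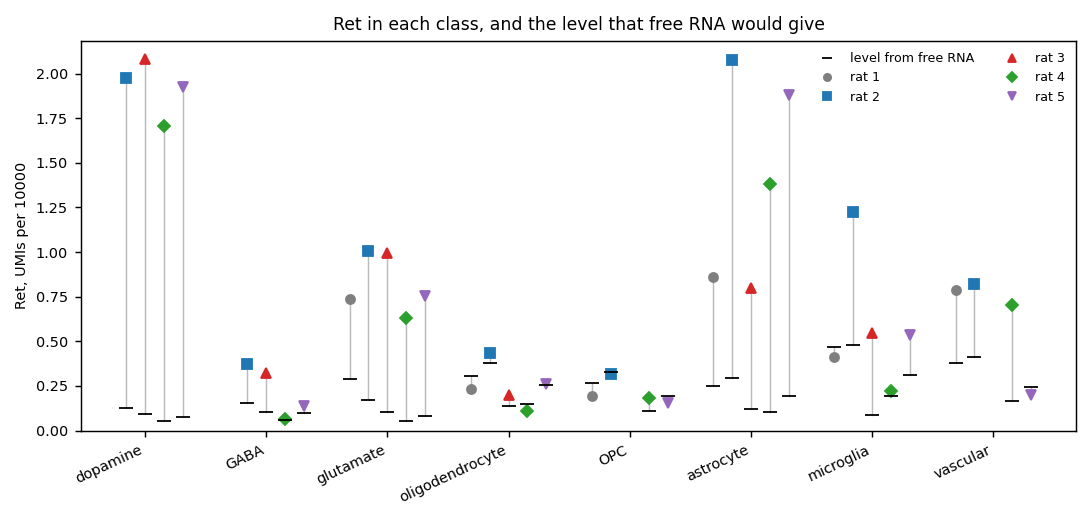
*Ret* level (y axis, UMIs per 10000) in each class (x axis), 1 symbol per rat, with a dash at the level that free RNA alone would give in that class and rat. Oligodendrocyte-like (0.112 to 0.436) and OPC-like nuclei (0.156 to 0.319) lie below their dashes in some rats and above them in others, whereas dopamine-like neurons (1.70 to 2.08) and astrocyte-like nuclei (0.80 to 2.08) lie above them in every rat.

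Dopamine-like sub-clusters led by *Aldh1a1* had less *Ret* as well, at 1.77, 1.86, 1.13 and 1.34 UMIs per 10000 in rats 2 to 5. The other dopamine-like sub-clusters ranged from 1.73 to 2.37, and in each rat all of them lay above the *Aldh1a1* sub-cluster. *Ret* was not limited to the named classes. In all 5 rats, a sub-cluster of other neurons with *Slc26a7* among its leading genes had 1.38 to 2.43 UMIs of *Ret* per 10000, in 250 nuclei together. These sub-clusters were not free of dopamine markers. That of rat 1 scored best as dopamine neuron, with *Ddc* among its leading genes, and was left out as mixed. The one of rat 2 was also left out as mixed, and that of rat 3 for under 3 markers.

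The promoter window of *Ret* is printed because the gene was called higher in dopamine-like neurons than in both other neuron classes, as *Ntf3* was. It lies at chr4:153040507-153040806 of GRCr8 on the minus strand, with capitals from the annotated start onward.
Ret: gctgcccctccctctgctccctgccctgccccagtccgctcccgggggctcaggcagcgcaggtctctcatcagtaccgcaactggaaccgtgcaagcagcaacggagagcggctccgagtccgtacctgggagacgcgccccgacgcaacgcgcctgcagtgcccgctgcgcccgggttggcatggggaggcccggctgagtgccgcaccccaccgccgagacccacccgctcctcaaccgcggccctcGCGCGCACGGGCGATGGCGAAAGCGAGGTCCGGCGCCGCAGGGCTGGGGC
It is 74.0% G or C and holds neither TGACG nor GGGCGG. AAAGGTCA, the element bound by the dopamine neuron factor NURR1 (*Nr4a2*), and TAATTA, a core bound by many homeodomain factors, were searched on both strands and were in none of the 12 matched windows, against 1.43% and 5.36% of all windows.

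*Gfra2* was highest in GABA-like neurons on average. The level was 1.99, 0.648, 2.04 and 1.33 UMIs per 10000 in rats 2 to 5. Dopamine-like neurons had 0.612, 0.188, 1.07 and 0.877 in the same rats. Glutamate-like neurons had 0.998, 1.60, 0.171, 0.770 and 0.838 in rats 1 to 5. Rat 3 was the lowest in each neuron class, and the class ranges overlapped. OPC-like nuclei had 0.938 ± 0.234 (n = 4), vascular-like 0.833 ± 0.579 (n = 4), astrocyte-like 0.508 ± 0.334 (n = 5) and oligodendrocyte-like 0.0746 ± 0.0575 (n = 5). Adjacent classes in this order overlapped down to astrocyte-like nuclei, which lay above oligodendrocyte-like nuclei.

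Within rats the order was steadier. *Gfra2* was lower in dopamine-like than in GABA-like neurons in 4 of 4 rats (log2 difference −1.12 ± 0.23, adjusted p = 0.00216), a call lost without the rat block. Between GABA-like and glutamate-like neurons it passed narrowly (0.85 ± 0.24, adjusted p = 0.0461), and 8 of 15 alternatives lost it, leaving out rat 3, 4 or 5 among them (adjusted p = 0.185, 0.335 and 0.0858). Between dopamine-like and glutamate-like neurons it did not pass (−0.27 ± 0.26, adjusted p = 0.599), with 3 of 4 rats higher and rat 2 lower, and the sign turned without rat 2 (0.37). It passed with nuclei thinned to 1000 UMIs (−1.06, adjusted p = 0.0320). *Gfra2* was 6.49-fold higher in astrocyte-like (log2 difference 2.70 ± 0.26, adjusted p = 1.46e-07; 2.70 without rat 3) and 10.7-fold higher in OPC-like (3.42 ± 0.25, adjusted p = 5.70e-09; 3.41 without rat 3) than in oligodendrocyte-like nuclei. The oligodendrocyte-like level was 0.0578, 0.175, 0.0331, 0.0451 and 0.0613 in rats 1 to 5, below the 0.0763, 0.196, 0.0456, 0.0650 and 0.105 that free RNA would give, and 0 remained after subtraction in each rat. In astrocyte-like nuclei 0.151 to 1.0 remained and in OPC-like nuclei 0.690 to 1.23. Both calls were kept, and the fitted differences of 9.89 and 10.7 depend on the prior count of a group at 0 and are no bound. *Gfra2* was lower in astrocyte-like than in OPC-like nuclei (−0.72 ± 0.25, adjusted p = 0.0324; −0.72 without rat 3), a call lost in 9 of 16 alternatives, leaving out rat 1, 4 or 5 among them (adjusted p = 0.122, 0.0636 and 0.0769).

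Among GABA-like sub-clusters *Gfra2* ran from 0 to 4.35 UMIs per 10000. The 5 sub-clusters with *Pdgfd*, a growth factor gene, among their leading genes had 0.668 to 4.33, and the 5 led by *Nox4* had 1.25 to 4.35. Sub-clusters led by *Ikzf1* had 0.305 to 0.707. The 5 sub-clusters with *Grik1* among their leading genes had *Gfra2* levels of 0 to 3.40, with a median of 2.71, and *Ntrk3* levels of 18.6 to 41.3, and 1 of them is also among those with *Pdgfd*. These sub-clusters were chosen after their values were seen.

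**Figure D5:**
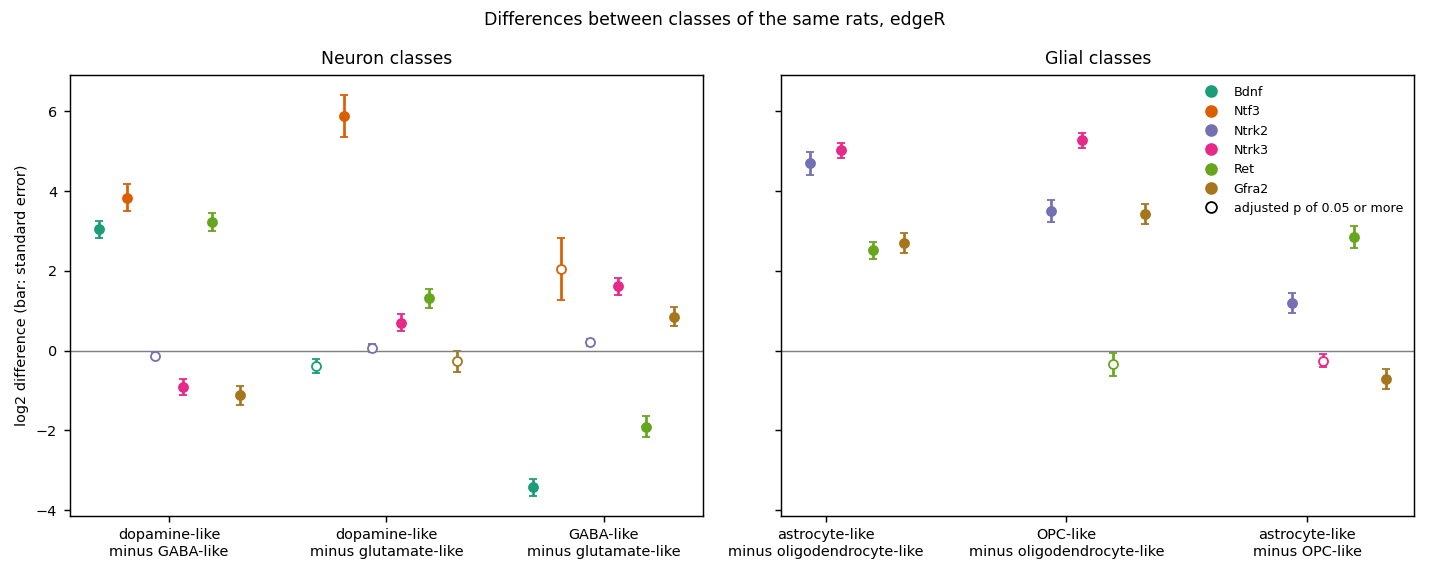
Log2 differences (y axis; bars are standard errors) of the genes that passed the filter on low counts, 6 between neuron classes (left) and 4 between glial classes (right), in edgeR fits with the rat as a block. Filled points passed an adjusted p under 0.05. *Ret*, *Ntf3* and *Bdnf* lie above 0 and *Ntrk3* and *Gfra2* below 0 for dopamine-like minus GABA-like neurons.

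Whether *Gfra2* was detected in the same dopamine-like neurons as *Ret* was asked because GFRα2 signals through RET. With nuclei thinned to 1000 UMIs, *Gfra2* was found in 2.0%, 1.85%, 14.3% and 8.82% of *Ret*-positive neurons of rats 2 to 5. Among *Ret*-negative neurons it was found in 5.13%, 0.813%, 6.54% and 6.60%. The share was higher in *Ret*-positive neurons in 3 of 4 rats, and the mean difference was 1.97 ± 4.48 percentage points (SD, n = 4 rats). With signs permuted over rats, the exact two-sided p was 0.5, and 0.125 is the smallest that 4 rats allow. Differences in single rats ran from −3.13 to 7.74 points. The *Ret*-positive neurons numbered 50, 54, 14 and 34, and held 1, 1, 2 and 3 with *Gfra2*.

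The other genes of the pathway were taken from lists of 66 genes in 6 groups, of which 48 were tested in each fit. Between dopamine-like and GABA-like neurons 5 were higher and 9 lower (29.2%, against 22.1% of all genes), with a median log2 difference of −0.01. The other receptors and coreceptors gave 1 higher and 4 lower of 8. *Sorcs1*, a sorting receptor of the sortilin family, had 14.3 ± 3.28 UMIs per 10000 in GABA-like and 0.748 ± 0.428 in dopamine-like neurons (log2 difference −4.25 ± 0.19, edgeR adjusted p = 3.42e-10). *Sorcs3*, of the same family, was lower as well (−1.53 ± 0.19), as were *Rtn4r*, the Nogo receptor that p75 accompanies (−2.30 ± 0.42), and *Pcsk6*, a proprotein convertase (−1.85 ± 0.43). *Shc4*, an adaptor of the Shc family, was higher in dopamine-like neurons (2.15 ± 0.23). Each of these 5 had the same direction in 4 of 4 rats.

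Against glutamate-like neurons, 5 of the 48 were higher and 5 lower in dopamine-like neurons (20.8%, against 15.6% of all genes). *Shc4* was again higher (1.90 ± 0.28), as was *Traf6*, a ubiquitin ligase that joins p75 signalling (1.04 ± 0.30). *Sorcs1* (−2.26 ± 0.19), *Pcsk6* (−2.45 ± 0.46) and *Rtn4r* (−2.02 ± 0.48) were lower. Between GABA-like and glutamate-like neurons, 6 of the 48 were higher and none lower (12.5%, against 7.20%). These included *Pcsk5*, a convertase (2.03 ± 0.20), the sorting receptors *Sorcs1* (2.0 ± 0.17), *Sorcs2* (1.23 ± 0.22) and *Sorcs3* (0.93 ± 0.19), and *Slitrk5*, a TrkB coreceptor (0.63 ± 0.18). No gene of the adaptor, p75 or feedback lists was called there.

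Among glia, 18 of the 48 were higher and 10 lower in astrocyte-like than in oligodendrocyte-like nuclei (58.3%, against 50.0% of all genes). The adaptor *Shc3* (5.53 ± 0.24), *Sorcs2* (4.42 ± 0.22) and the plasminogen activator *Plat* (3.56 ± 0.34), which opens the path to mature BDNF, were higher, and *Sorcs1* (−3.71 ± 0.36) and *Pcsk6* (−2.54 ± 0.18) were lower. In OPC-like nuclei 21 were higher and 8 lower than in oligodendrocyte-like nuclei (60.4%, against 48.1%). The largest were *Shc3* (6.37 ± 0.24), *Sorcs3* (5.74 ± 0.19), the RET adaptor *Dok6* (5.08 ± 0.22), the feedback inhibitor *Spry4* (5.03 ± 0.40) and *Shc2* (4.56 ± 0.28). The feedback inhibitors gave 7 higher and none lower of 9 there. Between astrocyte-like and OPC-like nuclei, 9 were higher and 19 lower (58.3%, against 38.5%), among them *Sorcs3* (−5.08 ± 0.21), *Shc4* (−5.03 ± 0.30), *Dok6* (−4.58 ± 0.24), *Spry3* (−4.06 ± 0.36) and, higher, *Sorcs2* (4.43 ± 0.30). Without rat 3, where 47 of these genes were tested, 17 were higher and 10 lower in astrocyte-like than in oligodendrocyte-like nuclei (57.4%, against 50.7% of all genes). In OPC-like against oligodendrocyte-like nuclei 20 were higher and 11 lower (66%, against 49.9%), and in astrocyte-like against OPC-like nuclei 8 were higher and 19 lower (57.4%, against 40.1%). *Plat* failed the filter on low counts without rat 3. The other named differences kept their calls, and those that moved by more than 0.1 were *Sorcs1* (−4.17) in astrocyte-like minus oligodendrocyte-like and *Spry3* (−4.30) in astrocyte-like minus OPC-like nuclei.

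Genes with the most similar pattern were sought over 36 sums of rat by class, as Pearson's r of log2(CPM + 1), where CPM is counts scaled to the library total, centred within rats. For *Bdnf* these were *Lmx1b* (r = 0.921), *Lmx1a* (0.887) and AABR07054126.1 (0.887). For *Ntf3* they were AABR07032097.1 (0.782), *Sphkap* (0.779) and *Tmem207* (0.775). For *Ntrk2* they were *Cdh10* (0.953), *Gabrb1* (0.941) and *Dgkb* (0.937), and for *Ntrk3* *Nol4* (0.963), *Dgkb* (0.953) and *Enah* (0.939). For *Ret* they were *Dhrs3* (0.779), *Fam20a* (0.778) and *Shroom3* (0.735), and for *Gfra2* *Speg* (0.902), *Hnmt* (0.854) and *Flrt2* (0.853). The sums of a rat share a library, and the coefficients are descriptive. *Ngfr* and *Gdnf* had too few UMIs for this.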

How the data were processed

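Nuclei from VTA punches of 5 rats were profiled by 10x Genomics 3′ snRNA-seq, 1 library per rat. The authors deposited raw UMI counts per gene and barcode. Their processing notes name Cell Ranger 8.0.1, while the matrix headers name another version, and the reference build is not given in the sources used here. No per-sample column was left unused (0).

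Barcodes with at least 1000 UMIs, more than 200 and fewer than 5000 genes and under 5% mitochondrial UMIs were kept, 22084 in all, from library totals of 10193355 to 88576210 UMIs. Scrublet's automatic threshold marked 0% to 0.219% of barcodes, so the top-scoring 0.8% per 1000 nuclei, 1068 in all, were removed instead. Each library was clustered alone (scanpy 1.11.5, leidenalg 0.10.2) without the genes described here, their pathway lists and mitochondrial genes, and clusters were named by at least 3 detected markers. Clusters with mixed markers, or with a median of UMIs far below another cluster of their type in that rat, were left out of the classes. Counts were summed per rat and class with at least 20 nuclei and tested with edgeR 4.0.16 (R 4.3.3; TMM, filterByExpr, rat as a block, 6 comparisons). Sums of 1 rat come from the same animal, and their deviations from class means correlated at 0.149 to 0.789, against −0.618 to 0.416 between rats. Subtracting the class mean over so few rats pulls the values between rats down, so part of this gap is built in. On simulated data, 76% to 82% of 2-fold changes and 91% to 97% of 4-fold changes were recovered for the 4 comparisons simulated. The simulation used a shared profile for all classes, a common spread for all genes and no rat effect. Recovery in the real data may therefore differ.

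Genes named were those of the rule, up to 5 pathway genes per comparison with the largest called difference and the same direction in every rat, and the 3 most alike genes. The genes and lists were chosen with earlier results of these data known. Alternatives were DESeq2 1.42.0, other normalization, no filter, no block, doublets kept, free RNA subtracted, other typing and clustering, other limits on UMIs and genes, thinning, and leaving out each rat. Intervals and limits cover counting error only.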

Additional observations from a re-analysis of the deposited data

Results flagged for a closer look

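In 13 of 61 groups of 4 or 5 rats, 1 rat lay far from the others by Dixon's test. Chance does so in about 1 group in 20 where values vary continuously, which does not hold for the 9 groups in which every other rat was at 0, so the number of groups is not read against it. Of the 13, 3 were in rat 3. The *Ntrk2* level of astrocyte-like nuclei was 4.0 UMIs per 10000 in rat 3 and 13.2 to 15.9 in the other rats. The *Ntrk3* level of microglia-like nuclei was 4.0 in rat 3, from 51 UMIs in 59 nuclei, and 0.166 to 0.646 in the others. The microglia-like nuclei of rat 3 also had the fewest microglial marker UMIs, 15.8 per 10000, and the part of this in the result was not tested. The *Gfra2* level of oligodendrocyte-like nuclei was 0.175 in rat 2, from 172 UMIs, and 0.0331 to 0.0613 in the others. Free RNA would give 0.196 in rat 2 and 0.0456 to 0.105 in the others, and 0 remained after subtraction in all 5 rats. The estimated share of free RNA was highest in rat 2, at 29.9%.

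The other 10 rested on 1 to 7 UMIs. *Ntf3* was highest in rat 2 in OPC-like (0.0220, from 2 UMIs) and vascular-like nuclei (0.101, from 7 UMIs), and in rat 3 in microglia-like nuclei (0.157, from 2 UMIs). *Ngfr* was highest in rat 4 in dopamine-like (0.00819) and glutamate-like neurons (0.00681), in rat 5 in astrocyte-like nuclei (0.0234) and in rat 1 in microglia-like nuclei (0.0587). *Gdnf* was highest in rat 4 in glutamate-like neurons (0.00681), in rat 1 in oligodendrocyte-like nuclei (0.00722) and in rat 5 in microglia-like nuclei (0.0448).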

How the results depend on the processing

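Of 468 differences of the 6 tested genes under alternatives, 430 kept their direction and side of the threshold, 32 lost a call, 3 gained one and 3 turned sign. Without the rat block, the counts of called genes were 816 for dopamine-like against GABA-like, 597 for dopamine-like against glutamate-like, 181 for GABA-like against glutamate-like and 2590 for astrocyte-like against OPC-like sums, where 2432, 1714, 793 and 3920 were called with it. The block also decided the calls of *Ntrk3* and *Gfra2* in dopamine-like minus GABA-like, *Ret* and *Ntrk3* in dopamine-like minus glutamate-like, *Ntrk3* and *Gfra2* in GABA-like minus glutamate-like, and *Ntrk2* and *Gfra2* in astrocyte-like minus OPC-like sums. With nuclei thinned to 1000 UMIs, which leaves fewer counts, the 6 counts were 980, 633, 339, 2752, 2692 and 1912. Typing nuclei by their own markers gave 1203 for dopamine-like against GABA-like, no maximum of genes gave 2600 for dopamine-like against glutamate-like, and no filter gave 1200 for GABA-like against glutamate-like neurons. The cause was not tested. Leaving out each rat gave 1866 to 2406, 1314 to 1704, 546 to 787, 4425 to 5216, 4090 to 5128 and 3097 to 4124. Rat 1 had only a glutamate-like class among the neurons, so leaving it out hardly tests the neuron comparisons. It gave the upper ends 2406, 1704 and 787.

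Signs turned for *Ntrk2* in dopamine-like minus glutamate-like neurons without the block (−0.042), *Gfra2* in the same comparison without replicate 2 (0.37; range −0.67 to 0.37 over the rats left out) and *Ret* in OPC-like minus oligodendrocyte-like nuclei with free RNA subtracted (0.43), and none of these values passed. The *Gfra2* share in *Ret*-positive minus *Ret*-negative neurons became −0.856 points with doublets kept (exact p = 0.75) and −1.31 with no maximum of genes (exact p = 0.5625), 6.77 with nuclei typed by their own markers (4 of 5 rats higher, exact p = 0.125) and 6.65 with all UMIs of a nucleus (3 of 4 rats, exact p = 0.25), against 1.97, and leaving out each rat gave 0.0435 to 3.67. Of 728 levels, 40 moved by more than 1 SD. Free RNA could not be subtracted per nucleus for co-detection, glutamate-like comparisons with nuclei typed by their own markers could not be fitted, and *Gfra1* co-detection was not analysed here. *Gdnf* (39 UMIs) and *Ngfr* (128 UMIs) failed the filter on low counts, and whether depth limits them was not tested.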
